A study of Mus musculus with 37 samples.

Results

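A set of 10 CC chemokine genes was followed in mouse colon: Ccl2, Ccl7, Ccl8 and Ccl11, Ccl3 and Ccl4, Ccl20 and Ccl22, and Ccl25 and Ccl28. They were 10 of the 19938 genes measured on Affymetrix Mouse Gene 1.0 ST arrays, and each was represented by a transcript cluster annotated to that symbol alone, the one with the highest mean over all 37 arrays. Colon RNA was taken from 1 mouse per array. The mutant mice were B6.129S4-Timp1tm1Pds/J knockouts (KO), in which Timp1, an inhibitor of matrix metalloproteinases, is targeted, and the wild types (WT) were C57BL/6J. Dextran sodium sulphate (DSS), a polysaccharide that injures the colonic epithelium, was given by mouth in an acute and in a chronic form. The 8 groups were KO acute DSS (n = 6), KO acute control (n = 3), WT acute DSS (n = 5), WT acute control (n = 3), KO chronic DSS (n = 5), KO chronic control (n = 5), WT chronic DSS (n = 5) and WT chronic control (n = 5). The knockout allele is present in every cell and throughout life, so it is not specific to colitis or to a cell type. The labels used here give no dose, duration, age or sex.

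Whole colon was snap frozen, so each value is an average over all its cells, and fewer cells of a type cannot be told apart from less RNA per cell. The array medians lay between 7.67 and 7.76 log2 units, and arrays correlated with the rest of their group at a mean of at least 0.951. Epcam and Krt8, which mark epithelium in general, averaged 11.83 and 14.10 log2 units over all arrays. They show that epithelium was present and do not tell colon from other epithelial tissue. Timp1 lay between 7.10 and 8.68 in KO acute DSS colon, against 9.47 to 12.19 in WT acute DSS colon, a difference of -3.14 ± 0.33 log2 units (± SE, limma adjusted p = 1.34e-07). Under chronic DSS the genotypes overlapped in Timp1 (6.83 to 7.30 in KO, 7.20 to 9.27 in WT). Chronic controls averaged 7.14 in KO and 7.13 in WT. Animal numbers in the titles fall into 4 series, which may be batches. KO and WT acute controls came from different series, as did KO and WT chronic DSS mice. In those 2 comparisons series and genotype cannot be told apart. The genotype by DSS interactions given below contain these differences too, the acute one that of the controls and the chronic one that of the DSS mice. KO acute controls were all of series 2, while KO acute DSS mice came from series 1 and 2, 3 from each. KO acute control replicate 2 and KO acute DSS replicate 4 carried signal of 3 Y-linked genes (means of at least 9.61, against at most 5.43 elsewhere). Several of the results that rest on them are given without them as well. WT acute DSS replicates 1 and 3 had the lowest colon epithelium signal of their group, and several of the acute results are also given without this pair.

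CC chemokines are small secreted proteins that guide leukocytes along gradients by binding G-protein-coupled receptors. Ccl2 and Ccl7 draw monocytes through Ccr2, Ccl8 in mouse acts on Ccr8, Ccl11 (eotaxin) draws eosinophils through Ccr3, and Ccl3 and Ccl4 are macrophage inflammatory proteins. Ccl20 is made by the epithelium over lymphoid follicles and attracts Ccr6-bearing cells, and Ccl22 is made by dendritic cells and macrophages and attracts Ccr4-bearing T cells. Ccl25 and Ccl28 are homeostatic products of the gut epithelium, Ccl25 mainly in small intestine, and serve lymphocytes that carry Ccr9 and Ccr10.

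Promoter sequence in the RefSeq table (build GRCm38.p6) was matched for 6 of the 10 members: Ccl3, Ccl8, Ccl20, Ccl22, Ccl25 and Ccl28. No entry matched Ccl2, Ccl4, Ccl7 and Ccl11. The 250 bases before the start are printed for Ccl3, which had the largest rise under acute DSS, for Ccl28, which had the largest fall, and for Ccl20, the matched member whose window held a searched motif. They lie at chr11:83649379-83649628 (minus strand), chr13:119623569-119623818 (plus strand) and chr1:83116516-83116765 (plus strand), each written 5′ to 3′ on the strand of its gene. Capitals mark the NF-kB match.
Ccl3: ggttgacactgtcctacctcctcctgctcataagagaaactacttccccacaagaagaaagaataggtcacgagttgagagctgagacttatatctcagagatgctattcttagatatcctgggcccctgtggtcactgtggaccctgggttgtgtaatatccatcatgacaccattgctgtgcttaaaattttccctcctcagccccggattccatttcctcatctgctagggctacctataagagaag
Ccl28: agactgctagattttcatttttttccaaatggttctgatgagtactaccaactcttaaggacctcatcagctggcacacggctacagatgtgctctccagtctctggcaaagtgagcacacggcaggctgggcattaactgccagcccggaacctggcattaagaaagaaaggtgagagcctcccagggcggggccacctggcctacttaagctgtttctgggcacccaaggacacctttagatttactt
Ccl20: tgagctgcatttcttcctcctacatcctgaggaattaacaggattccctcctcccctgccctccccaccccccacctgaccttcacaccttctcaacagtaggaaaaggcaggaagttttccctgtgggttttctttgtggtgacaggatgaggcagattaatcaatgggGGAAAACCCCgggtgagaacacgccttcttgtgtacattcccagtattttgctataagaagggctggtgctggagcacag
Both strands were searched for 3 motifs: the NF-kB consensus, the AP-1 letters TGANTCA and the interferon-gamma-activated letters TTCNNNGAA. They occurred in 3.90%, 6.75% and 7.02% of all 32851 promoters of this length. Among the 7 promoters of the members (Ccl25 has more than 1 start), the search found 1 match, the NF-kB letters on the minus strand of Ccl20, 80 to 71 bases before its start. A match describes the letters and is not evidence of binding.

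The members differed widely in how far their group means spread. The span between the highest and the lowest of the 8 group means was 2.91 log2 units for Ccl3, 2.18 for Ccl2, 2.13 for Ccl28, 2.01 for Ccl8, 1.75 for Ccl11, 1.31 for Ccl7 and 1.10 for Ccl20, and under 1 for Ccl4, Ccl22 and Ccl25. WT acute DSS colon had the highest mean of Ccl2, Ccl7, Ccl11, Ccl3 and Ccl4 and the lowest mean of Ccl20, Ccl25 and Ccl28. Ccl8 and Ccl22 were highest in WT chronic DSS colon. The plot of every array shows these levels, with WT acute DSS the most widely spread group for Ccl2, Ccl7, Ccl8, Ccl11, Ccl3, Ccl4 and Ccl28.

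**Figure D1:**
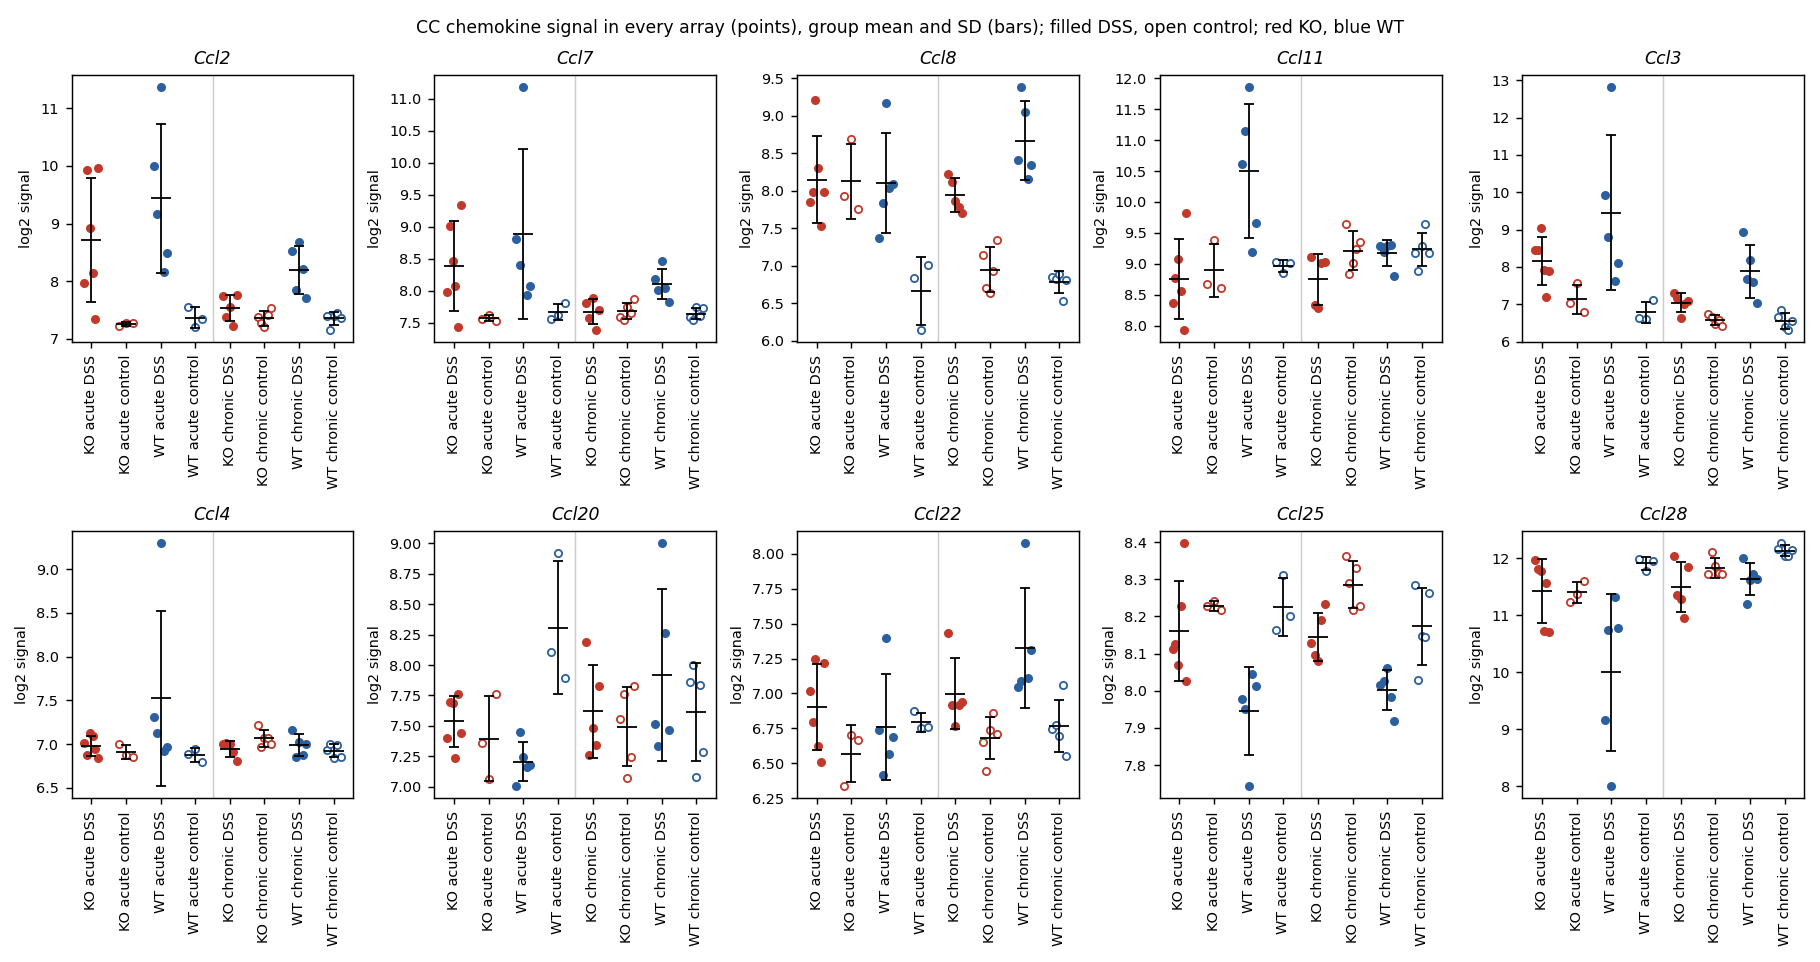
Log2 signal of the 10 members in each of the 37 arrays (points) in the 8 groups, with group means and SDs (bars). Filled points are DSS and open points control, red KO and blue WT; WT acute DSS replicate 3 is the highest point for Ccl2 (11.38), Ccl7 (11.19), Ccl11 (11.86), Ccl3 (12.83) and Ccl4 (9.30) and the lowest for Ccl28 (8.00).

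In wild types, acute DSS changed most of the members. Ccl2, Ccl7, Ccl8, Ccl11 and Ccl3 rose, while Ccl20, Ccl25 and Ccl28 fell. That is 8 of 10 members at an adjusted p under 0.05 over all genes (limma), where 41.2% of all genes tested were called, 19.4% higher and 21.8% lower. The median difference was 1.33 log2 units over the 8 inflammatory members and -1.10 over Ccl25 and Ccl28, against 0.01 over all genes. In the 8 called members every DSS array lay beyond every control array, which held for 17.7% of all genes upwards and 21.4% downwards. Fitted on the 8 arrays of this comparison alone, without the spread of the other groups, 4 of these calls were lost, with adjusted p of 0.199 for Ccl7, 0.0691 for Ccl11, 0.0886 for Ccl3 and 0.0721 for Ccl28. In that fit 5751 of all 19938 genes were called.

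Among the monocyte attractants, Ccl2 read 10.00, 9.17, 11.38, 8.16 and 8.48 in WT acute DSS colon, against 7.55, 7.20 and 7.35 in WT acute controls. All 5 DSS arrays were above the controls, replicate 3 the most and replicate 4 the least. The difference was 2.07 ± 0.48 log2 units (adjusted p = 0.000859), a 4.20-fold rise, and 1.24 (adjusted p = 0.0210) without replicates 1 and 3. Ccl7 read 8.81, 8.40, 11.19, 7.94 and 8.08 in WT acute DSS colon and 7.57, 7.62 and 7.81 in controls. Its difference of 1.22 ± 0.41 (adjusted p = 0.0175) rested heavily on replicate 3, without which it was 0.64 (adjusted p = 0.0482), and without replicates 1 and 3 it was 0.47 (adjusted p = 0.174). Ccl8, in mouse a ligand of Ccr8, read 7.37, 7.84, 9.18, 8.04 and 8.09 in WT acute DSS colon, against 6.83, 6.15 and 7.01 in controls, without overlap. It rose by 1.44 ± 0.32 (adjusted p = 0.000591), and by 1.33 (adjusted p = 0.00178) without replicates 1 and 3.

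Ccl11 read 10.61, 11.16, 11.86, 9.19 and 9.66 in WT acute DSS colon, against 9.03, 8.85 and 9.01 in controls. The groups did not overlap, although replicate 4 stood only slightly above the controls. Ccl11 rose by 1.53 ± 0.38 (adjusted p = 0.00184), and by 1.04 (adjusted p = 0.0319) without replicates 1 and 3. Of 8 listed eosinophil markers 6 were measured, and of these Il5ra, the interleukin-5 receptor alpha chain, rose by 1.72 ± 0.20 (adjusted p = 1.55e-07). The other 5 eosinophil markers were not called, and the mean of the list lay between 6.80 and 7.04 in WT acute DSS colon, against 6.48 to 6.67 in controls. Whether eosinophil numbers took part in the Ccl11 difference was not tested.

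Ccl3 had the largest rise of the 10 members. It read 9.92, 8.80, 12.83, 7.63 and 8.10 in WT acute DSS colon and 6.64, 6.59 and 7.11 in controls, with no overlap. Its difference was 2.67 ± 0.61 log2 units, 6.38-fold (adjusted p = 0.000765), and 1.39 (adjusted p = 0.00381) without replicates 1 and 3. Ccl4, its neighbour on chromosome 11, read 7.31, 7.13, 9.30, 6.92 and 6.97 against 6.89, 6.95 and 6.80 in controls. One array, replicate 3, stood apart while the other 4 lay at or close to the controls, and the difference of 0.64 ± 0.27 was not called (adjusted p = 0.0530). Without replicate 3 it was 0.20. The RefSeq models of Ccl3 and Ccl4 overlap in their coordinates, and whether any probe reads both transcripts was not tested.

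The inducible ligands of dendritic and epithelial cells did not follow the monocyte attractants. Ccl20 read 7.00, 7.45, 7.24, 7.16 and 7.18 in WT acute DSS colon, against 8.11, 8.92 and 7.89 in controls, with all DSS arrays below all controls. It fell by 1.10 ± 0.28 log2 units (difference -1.10, adjusted p = 0.00250), and the difference was -1.05 (adjusted p = 0.0152) without replicates 1 and 3. The promoter of Ccl20 printed above is the one that held the NF-kB letters. Ccl22 averaged 6.76 ± 0.38 in WT acute DSS colon and 6.79 ± 0.07 in controls (SD, n = 5 and 3), a difference of -0.03 with a 95% interval from -0.44 to 0.38 (adjusted p = 0.910).

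Of the homeostatic pair, Ccl28 read 9.16, 10.74, 8.00, 11.32 and 10.77 in WT acute DSS colon and 12.00, 11.78 and 11.96 in controls. The controls were tightly grouped, the DSS arrays spread over more than 3 units, and none overlapped. Ccl28 fell by 1.91 ± 0.42 log2 units (difference -1.91, adjusted p = 0.000532), 3.77-fold lower, and the difference was -0.97 (adjusted p = 0.00662) without replicates 1 and 3. Ccl25 read 7.98, 7.95, 7.74, 8.04 and 8.01, against 8.16, 8.31 and 8.20 in controls, a small fall with a difference of -0.28 ± 0.07 (adjusted p = 0.00208). Without replicates 1 and 3 that difference was -0.22 (adjusted p = 0.0238). Ccl25 has a further cluster, whose listed transcript is the coding mRNA and whose mean was lower (7.51, against 8.14 for the cluster used). That cluster gave a difference of -0.76 ± 0.15 (adjusted p = 0.000347 over all clusters).

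Markers of other cell types moved along with these members in the same WT arrays. Neutrophil markers rose in 8 of 10 measured genes (list means of 8.40 to 10.35 under DSS, 6.75 to 6.83 in controls). Monocyte and macrophage markers rose in 6 of 11 (9.10 to 10.23, against 8.55 to 8.94), and fibroblast markers in 7 of 8 (10.92 to 11.93, against 10.20 to 10.38). Colon epithelium markers fell in 5 of 7 (9.29 to 11.43, against 12.85 to 12.94), and general epithelial markers in 8 of 11 (10.54 to 12.11, against 12.18 to 12.21). The part of these cell types in the chemokine differences was not tested.

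In knockouts, acute DSS gave 0 called members (limma), and 2 of 10, Ccl2 and Ccl7, had an unadjusted p under 0.05. Few genes were called at all, 1.12% of those tested, and 16.3% of all genes had an unadjusted p under 0.05. Ccl2 read 7.97, 9.92, 8.92, 8.15, 7.34 and 9.96 in KO acute DSS colon, against 7.22, 7.28 and 7.28 in KO acute controls. All 6 DSS arrays were above the controls, replicate 5 only just, which held for 2.79% of all genes. The difference was 1.45 ± 0.46 (95% interval 0.51 to 2.39, adjusted p = 0.105). It passed without replicate 5 (1.72, adjusted p = 0.0292), and within the series that held both groups, 3 arrays each, it was 1.22 ± 0.59 (adjusted p = 0.588). Without the arrays with Y-linked signal the difference was 1.57 (adjusted p = 0.186).

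The other members overlapped between KO acute DSS and KO acute control. Ccl7 lay between 7.44 and 9.34 (median 8.27) in KO acute DSS colon, against 7.53 to 7.62 in controls, with a difference of 0.81 ± 0.40 (adjusted p = 0.303). Ccl3 lay between 7.18 and 9.05 (median 8.18), against 6.80 to 7.57, with a difference of 1.03 ± 0.59 (adjusted p = 0.396). Within the series that held both groups Ccl3 differed by 0.53 ± 0.26 (adjusted p = 0.595), and without the arrays with Y-linked signal by 1.29 (adjusted p = 0.422). For Ccl8, Ccl11, Ccl20 and Ccl28 the differences were 0.02, -0.14, 0.14 and 0.02. The 95% intervals ran from -0.61 to 0.65 for Ccl8, from -0.89 to 0.62 for Ccl11, from -0.42 to 0.70 for Ccl20 and from -0.81 to 0.85 for Ccl28. The value for Ccl28 averages a split by series: KO replicates 1 to 3, of series 1, were 0.56, 0.41 and 0.37 above the mean of the controls, which were all of series 2, while replicates 4, 5 and 6, of series 2, differed from it by -0.68, 0.16 and -0.70. Within series 2 the Ccl28 difference was -0.41 ± 0.24 (adjusted p = 0.633). Ccl4, Ccl22 and Ccl25 differed by 0.07, 0.33 and -0.07.

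Set directly against each other under acute DSS, KO and WT colon differed in 4 of 10 members, where 30.9% of all genes were called (15.8% higher and 15.2% lower). Ccl11 and Ccl3 were lower in KO colon, and Ccl28 and Ccl25 higher. The median difference was -0.52 log2 units over the 8 inflammatory members and 0.82 over Ccl25 and Ccl28, against 0.02 over all genes. In 0 of 10 members were the KO and WT arrays fully apart, as they were for 2.96% of all genes with KO higher and 3.04% with KO lower.

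Ccl11 lay between 7.93 and 9.83 (median 8.66) in the 6 KO acute DSS arrays, and read 10.61, 11.16, 11.86, 9.19 and 9.66 in WT acute DSS. The KO arrays fell below the lowest WT array except KO replicate 6, which lay among the WT values. The difference was -1.74 ± 0.32 (adjusted p = 0.000114). With single arrays left out it ran from -2.07 to -1.40 and kept its call. It was -1.25 (adjusted p = 0.00929) without WT replicates 1 and 3, -1.71 (adjusted p = 0.000386) without the arrays with Y-linked signal, and -1.76 ± 0.57 (adjusted p = 0.0712) within the series that held 3 KO and 5 WT arrays.

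Ccl28 read 11.96, 11.81, 11.77, 10.72, 11.56 and 10.70 in KO acute DSS colon, against 9.16, 10.74, 8.00, 11.32 and 10.77 in WT acute DSS colon. KO replicates 4 and 6 lay within the WT range, and the other KO arrays exceeded every WT array. The difference was 1.42 ± 0.35 (adjusted p = 0.00216), 0.92 without WT replicate 3, and 0.48 (adjusted p = 0.175) without WT replicates 1 and 3. Within 1 series it was 1.85 ± 0.71 (adjusted p = 0.109), and without the arrays with Y-linked signal 1.57 (adjusted p = 0.00187).

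Ccl3 lay between 7.18 and 9.05 in KO acute DSS colon and between 7.63 and 12.83 in WT acute DSS colon. The difference of -1.30 ± 0.50 was close to the threshold (adjusted p = 0.0487). It came largely from 1 array, since it was -0.45 (adjusted p = 0.346) without WT replicate 3 and -0.02 (adjusted p = 0.983) without replicates 1 and 3, and -1.25 (adjusted p = 0.0828) without the arrays with Y-linked signal. Ccl25 was higher in KO colon by 0.21 ± 0.06 (adjusted p = 0.00550), and by 0.76 ± 0.13 (adjusted p = 7.43e-05 over all clusters) in its coding-mRNA cluster. Without WT replicates 1 and 3 the first of these was 0.16 (adjusted p = 0.107), and without the arrays with Y-linked signal 0.20 (adjusted p = 0.0162). The uncalled members ranged from -0.73 ± 0.39 for Ccl2 (adjusted p = 0.167) to 0.33 ± 0.24 for Ccl20 (adjusted p = 0.304), with Ccl7, Ccl8, Ccl4 and Ccl22 at -0.50, 0.05, -0.54 and 0.14. With animal series as a covariate Ccl11 and Ccl28 kept their calls, and the adjusted p was 0.353 for Ccl3 and 0.0864 for Ccl25. Fitted on these 11 arrays alone, Ccl11 was called, and the adjusted p was 0.287 for Ccl3, 0.0965 for Ccl25 and 0.105 for Ccl28.

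**Figure D2:**
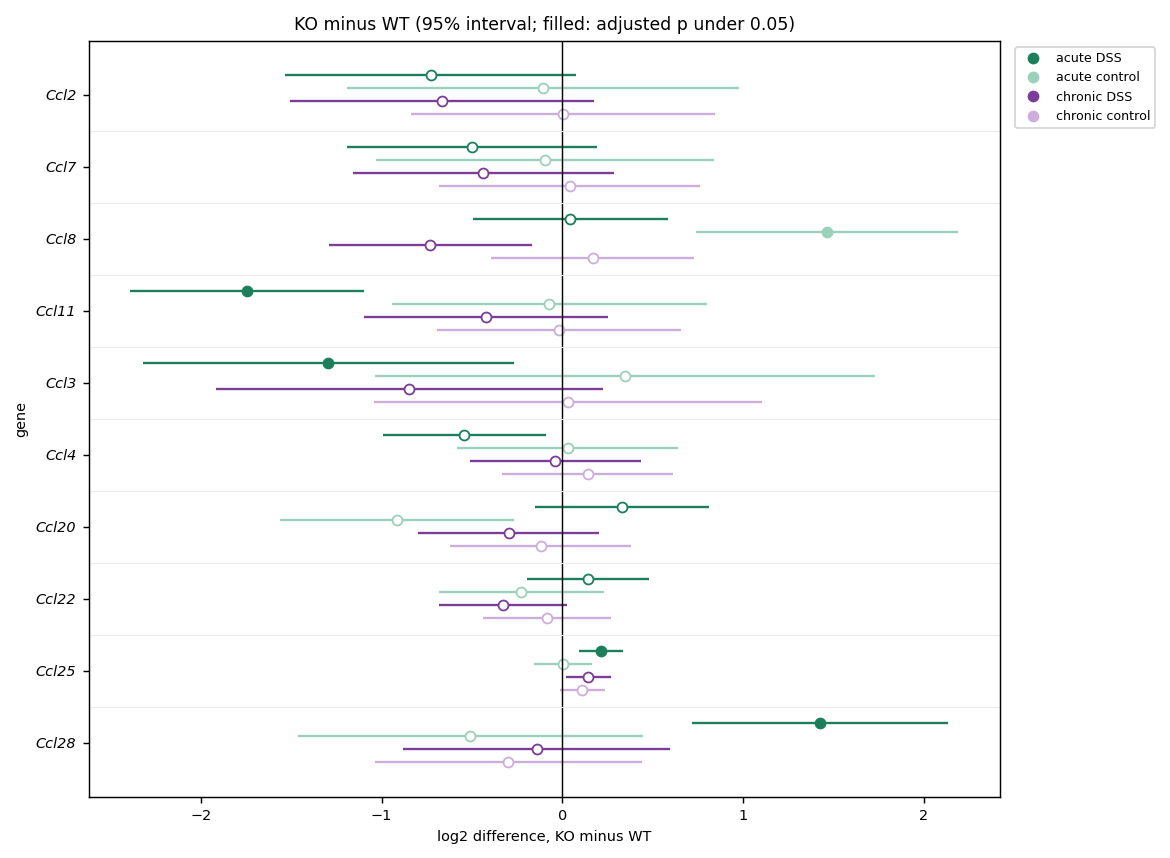
KO minus WT log2 differences of the 10 members with 95% intervals, in acute and chronic DSS and in the acute and chronic controls; filled points had an adjusted p under 0.05. Ccl11 (-1.74) and Ccl28 (1.42) lie farthest from 0 among the acute DSS calls, and Ccl8 (1.47) is the filled point in acute controls.

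The same acute DSS arrays differed in cell-type markers. Neutrophil markers were lower in KO colon in 6 of 10 genes, monocyte and macrophage markers in 7 of 11, fibroblast markers in 7 of 8 and endothelial markers in 6 of 6, while general epithelial markers were higher in 6 of 11 and T cell markers in 4 of 8. Colon epithelium markers were higher in 3 of 7 (list means of 11.25 to 12.30 in KO, 9.29 to 11.43 in WT). Replicate 3 of WT acute DSS, where Ccl3 was 6.04 above the mean of its controls and Ccl28 3.91 below (-3.91), also had the highest neutrophil mean (3.56 above controls) and the lowest colon epithelium mean (-3.61). The colon epithelium mean of KO replicates 1 to 6 differed from their controls by -0.76, -1.13, -0.91, -0.90, -0.37 and -1.41. It was below the controls in every KO array. Ccl28 was below them in replicates 4 and 6. The plot of single acute arrays shows these deviations side by side. The general epithelial mean, which is not plotted, differed from the controls by -0.07, -0.20, -0.02, 0.05, -0.02 and -0.36 in KO replicates 1 to 6. The part of cell composition in the genotype differences was not tested.

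**Figure D3:**
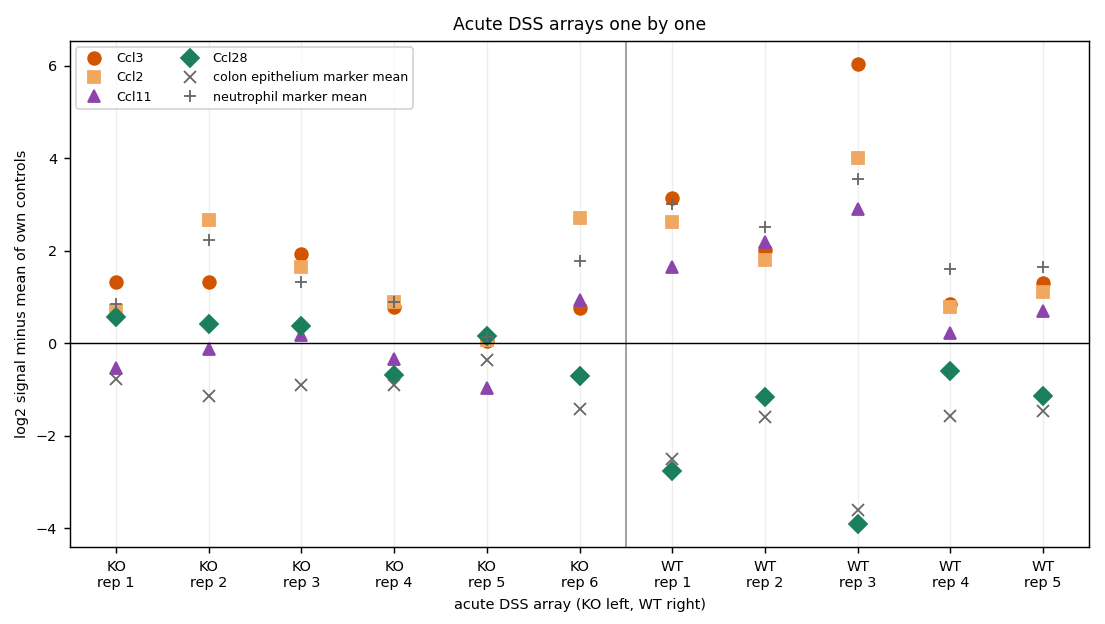
For each acute DSS array (KO left, WT right), the log2 signal of Ccl3, Ccl2, Ccl11 and Ccl28 and the means of 7 colon epithelium and 10 neutrophil markers, minus the mean of the same genotype's acute controls. WT replicate 3 has the highest Ccl3 (6.04) and the lowest Ccl28 (-3.91).

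The interaction term asks whether the acute DSS effect itself differed between genotypes. It was called for 4 of 10 members, where 12.3% of all genes were called (6.51% higher and 5.75% lower). The DSS effect was lower in KO for Ccl11 (-1.67 ± 0.53, adjusted p = 0.0367) and Ccl8 (-1.42 ± 0.44, adjusted p = 0.0335), and higher for Ccl28 (1.93 ± 0.58, adjusted p = 0.0284) and Ccl20 (1.24 ± 0.40, adjusted p = 0.0364). The calls lay close to the threshold. Without WT acute DSS replicates 1 and 3 none was called: the value for Ccl8 was -1.31 (adjusted p = 0.0526) and that for Ccl20 1.19 (adjusted p = 0.0902), about as large as with all arrays, while Ccl11 gave -1.18 (adjusted p = 0.140) and Ccl28 0.99 (adjusted p = 0.0860). Without the arrays with Y-linked signal Ccl28 was called (2.06, adjusted p = 0.0387), and Ccl11 gave -1.39 (adjusted p = 0.120), Ccl8 -1.17 (adjusted p = 0.109) and Ccl20 1.14 (adjusted p = 0.0854). With animal series as a covariate Ccl8 was called (-1.63, adjusted p = 0.0403), and Ccl11 gave -1.65 (adjusted p = 0.0802), Ccl20 1.19 (adjusted p = 0.0894) and Ccl28 1.51 (adjusted p = 0.124). Fitted on the acute arrays alone, Ccl20 was called, and the adjusted p was 0.140 for Ccl8, 0.172 for Ccl11 and 0.165 for Ccl28. For Ccl2 and Ccl3 the interaction was -0.62 ± 0.66 (adjusted p = 0.572) and -1.65 ± 0.85 (adjusted p = 0.201), so a difference in their DSS effect was not shown. Ccl7, Ccl4, Ccl22 and Ccl25 gave -0.40, -0.57, 0.37 and 0.21 and were not called. The coding-mRNA cluster of Ccl25 gave 0.77 ± 0.21 and was called (adjusted p = 0.0278 over all clusters).

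For Ccl8, Ccl20 and Ccl28 the interaction came with untreated groups that did not overlap. Ccl8 read 7.94, 8.70 and 7.76 in KO acute controls, against 6.83, 6.15 and 7.01 in WT acute controls. All 3 KO values were above the WT values, as in 10.8% of all genes, and the difference was 1.47 ± 0.36 (adjusted p = 0.0330). Ccl8 was the 1 member called there, where 1.12% of all genes were called (0.341% higher and 0.777% lower). Without KO control replicate 2, which had the highest Ccl8 value and Y-linked signal, the difference was 1.18 (adjusted p = 0.176), and 5 of the 6 fits that left out 1 control array lost the call. Under acute DSS itself Ccl8 averaged 8.15 ± 0.58 in KO (n = 6) and 8.10 ± 0.66 in WT (SD, n = 5), a difference of 0.05 with a 95% interval from -0.49 to 0.58. Ccl20 read 7.36, 7.06 and 7.76 in KO acute controls, against 8.11, 8.92 and 7.89 in WT acute controls, all below, as in 15% of all genes, with a difference of -0.91 ± 0.32 that was not called (adjusted p = 0.165). Ccl28 read 11.23, 11.37 and 11.60 in KO acute controls, against 12.00, 11.78 and 11.96 in WT acute controls, again all below. Its difference of -0.51 ± 0.47 (adjusted p = 0.722), which enters the interaction of 1.93, was called when the 6 control arrays were fitted alone (adjusted p = 0.0360), and with animal series as a covariate it turned to 0.35 (adjusted p = 0.846). Ccl22 was also lower in all 3 KO controls, by a difference of -0.23, and Ccl2, Ccl7, Ccl11, Ccl3, Ccl4 and Ccl25 overlapped, at -0.11, -0.10, -0.07, 0.35, 0.03 and 0.003.

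Cell-type lists also stood apart in these control arrays, with 0 of their genes called (limma). The mean of 8 T cell markers was 7.66 ± 0.17 in KO acute controls and 7.28 ± 0.17 in WT acute controls (SD, n = 3 each) without overlap. Of the 8 markers, 5 had an unadjusted p under 0.05, where 13.1% of all genes did. The mean of 9 small intestine epithelium markers lay between 7.89 and 8.67, against 7.50 to 7.69 (2 of 9 at an unadjusted p under 0.05). That of 7 colon epithelium markers lay between 12.64 and 12.70, against 12.85 to 12.94 (0 of 7). Their part in the control differences and in the interaction was not tested.

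In chronic controls KO and WT read 6.95 ± 0.30 and 6.78 ± 0.14 for Ccl8 (SD, n = 5 each). There 0 members were called by limma, where 0.1% of all genes were called (0.0702% higher and 0.0301% lower). An unadjusted p under 0.05 was found for 0 members and for 9.46% of all genes. The other members ranged from -0.30 ± 0.36 for Ccl28 (adjusted p = 0.863) to 0.14 ± 0.23 for Ccl4 (adjusted p = 0.910). Ccl2, Ccl7, Ccl11, Ccl3, Ccl20, Ccl22 and Ccl25 differed by 0.01, 0.04, -0.02, 0.03, -0.12, -0.09 and 0.11.

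Chronic DSS in wild types raised Ccl8 and Ccl22, 2 of 10 members, where 14.4% of all genes were called (5.79% higher and 8.58% lower). The number of called members gave no fixed order of the phases. It was 2 in chronic and 8 in acute WT colon with the spread of all 37 arrays, and 6 and 4 when only the arrays compared were fitted. Of all 19938 genes, the fits on only the arrays compared called 4029 in chronic and 5751 in acute WT colon. Over all genes, acute DSS thus had more calls in both kinds of fit. Ccl8 read 8.41, 9.39, 9.05, 8.16 and 8.35 in WT chronic DSS colon, against 6.85, 6.83, 6.89, 6.53 and 6.82 in controls. The groups lay more than 1 log2 unit apart, and the difference was 1.89 ± 0.28 (adjusted p = 1.90e-05). Ccl22 read 7.05, 7.09, 8.08, 7.11 and 7.31, against 6.74, 6.77, 6.70, 7.06 and 6.55 in controls. One control lay just above the lowest DSS array, and the difference of 0.56 ± 0.17 (adjusted p = 0.0272) was 0.37 and not called without DSS replicate 3, and missed the threshold with animal series as a covariate (adjusted p = 0.0502).

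Several uncalled members were still fully apart in WT chronic colon. Ccl2 lay between 7.70 and 8.68 in WT chronic DSS colon (8.19 ± 0.42, SD, n = 5) and between 7.15 and 7.45 in controls (7.35 ± 0.12, n = 5). Ccl7 lay between 7.82 and 8.47, against 7.54 to 7.75, and Ccl3 between 7.04 and 8.93, against 6.31 to 6.84. All DSS arrays exceeded all controls for Ccl2, Ccl7, Ccl8 and Ccl3, which held for 6.23% of all genes. With the spread of all 37 arrays the differences were 0.84 ± 0.41 for Ccl2 (adjusted p = 0.185), 0.46 ± 0.36 for Ccl7 (adjusted p = 0.448) and 1.34 ± 0.53 for Ccl3 (adjusted p = 0.0864). Fitted on the animal series that held both groups, 5 DSS and 3 control arrays, the adjusted p was 0.0207 for Ccl2, 0.0341 for Ccl7 and 0.0355 for Ccl3. In that series Ccl8 kept its call (adjusted p = 0.00168) and Ccl22 lost it (0.59 ± 0.21, adjusted p = 0.0877). Ccl28 lay between 11.21 and 12.00 in WT chronic DSS colon, all below its controls at 12.04 to 12.27 (as in 8.76% of all genes), with a difference of -0.49 ± 0.36 (adjusted p = 0.422, and 0.0409 in that series). Ccl11, Ccl4, Ccl20 and Ccl25 differed by -0.06, 0.06, 0.30 and -0.17.

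Cell-type markers moved in the same WT chronic arrays. T cell markers rose in 7 of 8 measured genes (list means of 7.51 to 8.19 in WT chronic DSS colon, against 6.95 to 7.29 in controls), plasma cell markers in 4 of 6 (9.90 to 10.95, against 8.90 to 9.55) and neutrophil markers in 6 of 10 (6.89 to 8.72, against 6.81 to 6.95). Monocyte and macrophage markers rose in 2 of 11 and fell in 1. Colon epithelium markers fell in 2 of 7 (11.37 to 12.16, against 12.64 to 13.00). The mean of 11 general epithelial markers went the other way (12.10 to 12.34, against 11.93 to 12.16). The T cell, plasma cell and colon epithelium means did not overlap between the groups. The part of these cell types in the member differences was not tested.

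In knockouts, chronic DSS raised Ccl8, the 1 member called, where 7.94% of all genes were called (2.47% higher and 5.47% lower). Ccl8 read 8.23, 8.12, 7.87, 7.78 and 7.70 in KO chronic DSS colon, against 7.14, 6.70, 6.63, 6.94 and 7.34 in controls. No array overlapped (2.82% of all genes were likewise all higher), and the difference was 0.99 ± 0.28 (adjusted p = 0.0238), a call lost in 2 of the 10 fits that left out 1 array. Ccl3 was 7.04 ± 0.25 in KO chronic DSS colon and 6.58 ± 0.13 in controls (SD, n = 5 each), a difference of 0.46 ± 0.53 (adjusted p = 0.644). Fitted on these 10 arrays alone, Ccl3 was called as well (adjusted p = 0.0317). Ccl11 averaged 8.75 ± 0.41 in KO chronic DSS colon and 9.21 ± 0.31 in controls, a difference of -0.46 ± 0.33 (adjusted p = 0.425). Ccl22 differed by 0.32 ± 0.17 (adjusted p = 0.277), Ccl28 by -0.34 ± 0.36 (adjusted p = 0.621) and Ccl25 by -0.14 ± 0.06 (adjusted p = 0.158). Ccl2, Ccl7, Ccl4 and Ccl20 differed by 0.17, -0.01, -0.12 and 0.13. In these arrays T cell markers rose in 2 of 8 genes (list means of 7.19 to 7.78 in KO chronic DSS colon, against 7.01 to 7.23 in controls). Colon epithelium markers fell in 2 of 7 (10.92 to 12.48, against 12.31 to 12.99), while the mean of 11 general epithelial markers lay between 12.20 and 12.39, against 12.03 to 12.23. Their part in the Ccl8 rise was not tested.

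KO and WT colon were next compared under chronic DSS, where animal series and genotype cannot be told apart. None of the members was called (limma), where 2.48% of all genes were called (1.18% higher and 1.3% lower). An unadjusted p under 0.05 was found for 2 of 10 members (Ccl8 and Ccl25) and for 16.9% of all genes. Ccl8 was 7.94 ± 0.23 in KO and 8.67 ± 0.52 in WT (SD, n = 5 each), a difference of -0.73 with a 95% interval from -1.29 to -0.17 (adjusted p = 0.151). The 8 inflammatory members had negative differences, with a median of -0.43, from -0.85 for Ccl3 to -0.04 for Ccl4. Between them lay Ccl2 (-0.67), Ccl7 (-0.44), Ccl11 (-0.42), Ccl22 (-0.33) and Ccl20 (-0.30). Ccl25 differed by 0.14 and Ccl28 by -0.14. Of 10 neutrophil markers 1 was lower in KO (list means of 6.43 to 7.53 in KO, 6.89 to 8.72 in WT), and its part was not tested. The chronic interaction had 0 called members, where 0.421% of all genes were called. An unadjusted p under 0.05 was found for 1 member, Ccl8 (-0.90 ± 0.39, adjusted p = 0.269), and for 15.2% of all genes. The others ranged from -0.88 for Ccl3 to 0.16 for Ccl28, with Ccl2, Ccl7, Ccl11, Ccl4, Ccl20, Ccl22 and Ccl25 at -0.67, -0.48, -0.40, -0.18, -0.18, -0.24 and 0.03.

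**Figure D4:**
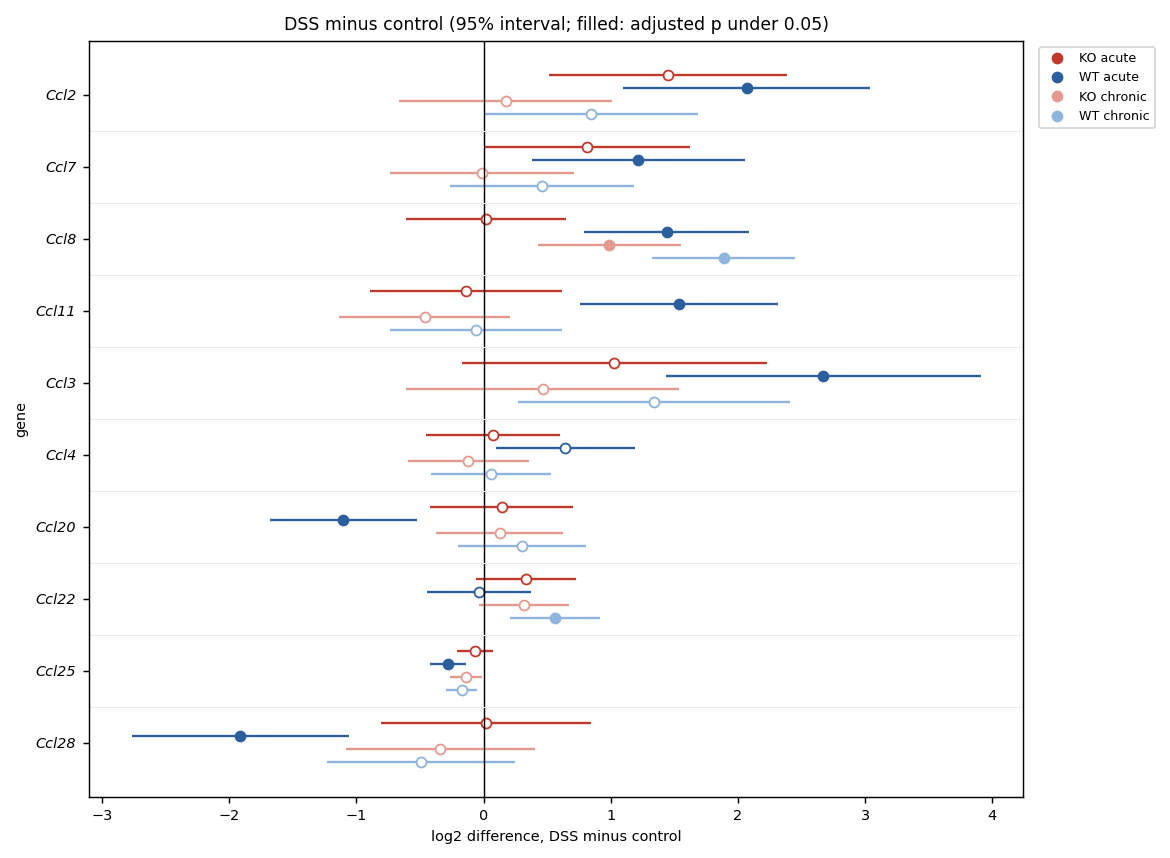
DSS minus control log2 differences of the 10 members with 95% intervals, in KO and WT, acute and chronic; filled points had an adjusted p under 0.05. Ccl8 is filled in WT acute (1.44), KO chronic (0.99) and WT chronic (1.89), and the filled points left of 0 are Ccl20, Ccl25 and Ccl28 in WT acute.

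The chronic and acute DSS effects were also compared within a genotype. In WT, 2 of 10 members differed, where 17% of all genes were called (9.3% higher and 7.71% lower). The effect on Ccl11 was lower in the chronic phase (-1.59 ± 0.51, adjusted p = 0.0287), and that on Ccl20 was higher (1.41 ± 0.38, adjusted p = 0.0107). Without WT acute DSS replicates 1 and 3, Ccl20 kept its call (1.35, adjusted p = 0.0398) and Ccl11 did not (-1.10, adjusted p = 0.139), nor did it with animal series as a covariate (-1.47, adjusted p = 0.0615). The Ccl20 contrast rests on WT acute controls, which had its highest group mean (8.31, against 7.61 in WT chronic controls). Without WT acute control replicate 2 neither Ccl11 nor Ccl20 was called. For Ccl8 the phases differed by 0.45 ± 0.42 (adjusted p = 0.494) and for Ccl28 by 1.42 ± 0.55 (adjusted p = 0.0731). Ccl2, Ccl7, Ccl3, Ccl4, Ccl22 and Ccl25 gave -1.23, -0.75, -1.33, -0.58, 0.59 and 0.11. In KO no member was called by limma, where 0.01% of all genes were called (0.00502% higher and 0.00502% lower). An unadjusted p under 0.05 was found for 2 of 10 members (Ccl2 and Ccl8) and for 11.4% of all genes. Ccl2 gave -1.28 ± 0.62 (adjusted p = 0.431) and Ccl8 0.97 ± 0.41 (adjusted p = 0.366). Ccl7, Ccl11, Ccl3 and Ccl4 gave -0.83, -0.32, -0.56 and -0.19, and Ccl20, Ccl22, Ccl25 and Ccl28 gave -0.02, -0.02, -0.07 and -0.36. The plot of DSS effects shows Ccl8 as the member called in both phases in WT.

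The receptors of the family were measured for 13 of 14 listed genes. In WT acute DSS colon 6 rose and 0 fell, where 19.4% of all genes were called higher and 21.8% lower. The median difference was 0.41 over the list. Ccr2, the receptor of Ccl2 and Ccl7 on inflammatory monocytes, averaged 8.36 in WT acute DSS colon and 6.76 in controls, a rise of 1.60 ± 0.34 (adjusted p = 0.000334). Ccr1, a receptor of Ccl3, rose by 1.40 ± 0.34 (adjusted p = 0.00160), Ackr1, a chemokine carrier of venular endothelium, by 0.79 ± 0.22 (adjusted p = 0.00407), and Ccr4, the receptor of Ccl22, by 0.75 ± 0.17 (adjusted p = 0.000949). Smaller rises were found for Ccr8 (0.33 ± 0.12) and for Ccr3, the receptor of Ccl11 (0.26 ± 0.08). The receptors of the members that fell did not pass: Ccr6 differed by 0.50, Ccr9 by 0.22 and Ccr10 by -0.26 (adjusted p of 0.322, 0.341 and 0.0879).

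In KO acute DSS colon 0 of 13 receptors were called (limma), with Ccr2 at 0.86 ± 0.33 (adjusted p = 0.174). An unadjusted p under 0.05 was found for 3 of the 13 and for 16.3% of all genes. Compared with WT under acute DSS, KO colon had lower Ackr1 (-0.90 ± 0.18, adjusted p = 0.000282), Ackr4 (-0.52 ± 0.12, adjusted p = 0.00159) and Ccr1 (-0.73 ± 0.28, adjusted p = 0.0485). Of all genes, 15.2% were called lower in that comparison and 15.8% higher. In WT chronic DSS colon 3 receptors rose: Ccr3 by 0.34 ± 0.07 (adjusted p = 0.000682), Ccr4 by 0.57 ± 0.15 (adjusted p = 0.00930) and Ccr10 by 0.33 ± 0.11 (adjusted p = 0.0347). There 5.79% of all genes were called higher and 8.58% lower. Ccr4 and its ligand Ccl22 both passed in WT chronic DSS, in the arrays where 7 of 8 T cell and 4 of 6 plasma cell markers also rose, and the part of these cells was not tested. In KO chronic DSS colon 0 receptors were called (limma), and 2 of 13 had an unadjusted p under 0.05, as did 23.3% of all genes.

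For 7 members whose group means spanned at least 1 log2 unit, the genes with the most similar centred profile over all 37 arrays were listed, by the root mean square difference in log2 units. Ccl2 lay nearest to Tnfaip2 (0.278), Il1r2 (0.287) and Tarm1 (0.293), and Ccl7 to Nlrp3 (0.218), Tfec (0.273) and Trem3 (0.276). For Ccl3 they were Acod1 (0.394), Lilr4b (0.464) and Il1a (0.495), and for Ccl8 Prdm1 (0.452), Lgals9 (0.465) and Il2rb (0.490). Ccl11 had Dab2 (0.329), Tgfbr3 (0.356) and Tmem119 (0.358), Ccl20 had Gp2 (0.307), Gabrp (0.345) and Grhl3 (0.354), and Ccl28 had Tmem236 (0.297), Myo5c (0.297) and Sema4g (0.307). No member had another member among its 3 nearest genes.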

How the data were processed

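Colon RNA of 37 mice was hybridized to 1-colour arrays. The deposited values are log2 signals made by the authors with RMA, per the submitters' processing notes; its version and the log base were not given in the sources used here, and the base was read as 2 from the range, 3.03 to 14.96. Of 35511 clusters, 21789 carried 1 symbol and 1621 several. Groups followed the titles. Titles carry animal numbers, each used once, and p-values measure the spread between these animals. One linear model with 8 group means was fitted to all arrays and 19938 genes (limma 3.58.1, R 4.3.3, 29 residual and 3.18 prior degrees of freedom). P-values were two-sided and adjusted by Benjamini-Hochberg within each of 12 comparisons. Every member was named in each comparison, and passing receptors and other CC chemokines were named in part of the comparisons. The fit was tested on simulated data in which each gene had the same spread in every group. That test therefore does not cover groups of unequal spread, such as WT acute DSS. Members and lists were chosen with earlier results of these data known. The alternatives were a trended prior, no dim genes, every cluster, cyclic loess, animal series, only the arrays compared, and each array left out; leaving out WT acute DSS replicates 1 and 3, or both arrays with Y-linked signal, was chosen after seeing the data. Figures were drawn with matplotlib 3.10.9.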

Additional observations from a re-analysis of the deposited data

Results flagged for a closer look

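Single arrays stood apart in 6 of the 60 combinations of member and group with 4 or more arrays, by the gap to the nearest array as a share of the group's range. Chance flags about 1 in 20 groups. WT acute DSS replicate 3 was far above its group for Ccl7 (share 0.733) and Ccl4 (0.838). Ccl22 was far higher in KO chronic DSS replicate 1 (0.743) and in WT chronic DSS replicate 3 (0.745) than in the other arrays of those groups. Ccl11 was far lower in WT chronic DSS replicate 5 (0.775), and Ccl8 in WT chronic control replicate 4 (0.797).

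The acute interaction term was called for Ccl8 (-1.42 log2 units), Ccl11 (-1.67), Ccl20 (1.24) and Ccl28 (1.93), where 12.3% of all genes were called. Without WT acute DSS replicates 1 and 3 the number of members called was 0. In WT, the chronic effect was called as different from the acute one for Ccl11 (-1.59) and Ccl20 (1.41), as it was for 17% of all genes. Without the same replicates Ccl20 kept this call and Ccl11 did not.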

How the results depend on the processing

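No paired analysis was possible because the titles give animal numbers that groups do not share. No called member changed direction under any alternative run. Of the 10 members, 8 passed the filter on dim genes; Ccl4 and Ccl22 did not. The number of called members moved as follows, and the cause was not tested. For the acute interaction (4 called) it was 2 with every cluster tested, 1 with animal series as a covariate, 1 with only the arrays compared, 0 without WT acute DSS replicates 1 and 3, 1 without both arrays with Y-linked signal, and 0 to 4 with single arrays left out (0 without KO acute control replicate 1). For KO against WT under acute DSS (4) it was 2 with the covariate, 1 with only the arrays compared, 0 in 1 series, 1 without replicates 1 and 3, and 3 to 6 with single arrays left out. For WT chronic DSS (2) it was 1, 6 and 5 with the covariate, only the arrays compared and 1 series, and 1 to 3 with single arrays left out. For the WT chronic minus acute effect (2) it was 1 with the covariate, 1 with only the arrays compared and 1 without replicates 1 and 3, and 0 to 3 with single arrays left out (0 without WT acute control replicate 2). For WT acute DSS (8) it was 4 with only the arrays compared, and 7 to 9 with single arrays left out. With only the arrays compared it was 2 for KO chronic DSS (1 called) and 2 for acute controls (1), and for acute controls it was 0 without the arrays with Y-linked signal. Leaving out single arrays gave 0 to 1 for KO chronic DSS, KO acute DSS and acute controls. Groups of 3 to 6 arrays limit the precision of every difference.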

Other observations

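Among 9 measured CC chemokines outside the 10 members, Ccl9, a monocyte and macrophage product of rodents, rose in WT acute DSS (10.18 in DSS and 8.69 in control colon, 1.48 ± 0.22, limma adjusted p = 3.64e-06), in KO chronic DSS (0.71 ± 0.19, adjusted p = 0.0163) and in WT chronic DSS (1.19 ± 0.19, adjusted p = 4.72e-05). Its acute DSS effect was lower in KO (interaction -0.96 ± 0.30, adjusted p = 0.0336). Ccl6 moved the other way in WT acute DSS (10.69 in DSS and 11.92 in control colon, -1.23 ± 0.26, adjusted p = 0.000381) and was higher in KO than in WT under acute DSS (0.76 ± 0.22, adjusted p = 0.00762). Ccl1 was slightly higher in WT acute DSS (0.22 ± 0.09, adjusted p = 0.0496). Ccl5, a T-cell and natural killer cell product, averaged 9.75 in KO acute controls and 8.45 in WT acute controls, a difference that was not called (adjusted p = 0.247).

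The clusters of Ccl25 disagreed in direction under chronic DSS. In KO the cluster used differed by -0.14 and the coding-mRNA cluster by 0.19, and in WT by -0.17 and 0.19, with none called. For the coding-mRNA cluster the chronic effect was above the acute one in WT (0.95 ± 0.20, adjusted p = 0.00391 over all clusters).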
